A study of Bos taurus with 18 samples.

Results

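miR-451, miR-486 and miR-144 are the microRNAs best known from red blood cells, and they are described here in 18 small RNA libraries of rumen papillae from cattle. They were chosen by name (bta-miR-451, bta-miR-486 and bta-miR-144) as a possible measure of the blood held in each biopsy. No rule on their values was used, but earlier results of these data were known at the choice. They are 3 of the 824 miRNAs that remained after names for the same miRNA were merged, and all 3 passed the filter on low counts that left 468 miRNAs for testing. The papillae, the projections of the forestomach wall that take up fermentation products, came by biopsy from 9 rumen-cannulated Holstein cows that were not in milk. The cows first ate only forage (FD, 100% forage) and were then moved to grain feeding (HG, 65% concentrate). Of the 9 cows, 5 were controls (CON) and 4 received a supplement labelled PHY, so FD_CON and HG_CON have 5 libraries and FD_PHY and HG_PHY have 4. The sources used here do not say what PHY means or whether those cows were already fed it at the FD_PHY biopsy. Every forage biopsy preceded the grain biopsies, so diet and time cannot be told apart.

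miR-451 and miR-144 are made from neighbouring hairpins in a single primary transcript that the transcription factor GATA1 switches on in maturing red cells. miR-451 is unusual because Argonaute 2, not Dicer, cuts its hairpin, and it helps red-cell precursors mature and withstand oxidative stress. miR-144 acts in the same cells, partly through the antioxidant regulator NRF2. miR-486 is encoded inside ANK1, the gene of the membrane skeleton protein ankyrin-1, and is abundant in red cells and in striated muscle. Mature red cells have no nucleus but keep these miRNAs, so their level in a tissue sample is often read as an index of blood. In a bulk sample, fewer cells of a type and less RNA per cell cannot be told apart.

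The deposited positions place both hairpins of the cluster close together. The miR-451 entry lay on the minus strand of chromosome 19 at 20796875 to 20796897, and the miR-144 entry on the same strand at 20797071 to 20797092, with 173 nt between them. The miR-486 entry lay on the minus strand of chromosome 27 at 36261849 to 36261870. The sources used here name no genome build for these positions. In the RefSeq gene table of ARS-UCD2.0, used only for gene order, MIR451 lies between ERAL1 and MIR144, MIR144 is followed by FLOT2, and MIR486 lies within ANK1. A human entry overlapped 2 of the members. Reads of miR-486 were listed in full under both the bovine and the human name. Those of miR-451 were shared with a human entry that ends 1 nt earlier, and in 15 of the 18 libraries the bovine entry held 0 reads beyond it. In HG_CON 1, HG_CON 3 and HG_PHY 3 it held 2461, 3808 and 1624 more reads, 2.63%, 2.58% and 2.74% of the entry. Counts below are those of the bovine entries.

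The libraries held 5.74 to 15.2 M (mega-reads) counted to miRNAs (median 9.49 M), out of 19.5 to 42.7 M in all, and 515 to 591 miRNAs were seen in each. Libraries of the same group differed by far more than counting noise, with a chi-square per degree of freedom between 110.6 and 2602 over 32 pairs. The tissue's own markers were present: miR-205, typical of stratified epithelium, averaged 28643 CPM (counts per mega-read counted, scaled by TMM), and miR-143, typical of smooth muscle, 133130 CPM.

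miR-451 had the most reads of the 3. It ranked 20th of 468 miRNAs by mean CPM, miR-486 61st and miR-144 135th. The mature entries are 22 or 23 nt long, so no scaling by length was applied. Whether reads of different miRNAs reflect their amounts equally was not tested. The mean of miR-451 over 18 libraries was 9050 ± 3314 CPM (SD), or 0.923% ± 0.390 of the reads counted, against 1392 ± 527 CPM for miR-486 and 210 ± 82.7 CPM for miR-144. Between the lowest and the highest library the CPM differed 2.85-fold for miR-451, 3.09-fold for miR-486 and 3.04-fold for miR-144. Counting error was a small part of this spread, since the lowest count gives a coefficient of variation of 0.411%, 1.03% and 2.79% in turn, against 36.6%, 37.9% and 39.4% measured over the libraries.

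On forage, miR-451 stood at 12506, 5468, 9306, 7624 and 6631 CPM in FD_CON 1 to 5 and at 10602, 6349, 10487 and 6178 CPM in FD_PHY 1 to 4. On grain it stood at 14805, 9240, 15477, 6663 and 6697 CPM in HG_CON 1 to 5 and at 14273, 8930, 6240 and 5432 CPM in HG_PHY 1 to 4. HG_CON 3, HG_CON 1 and HG_PHY 1 were the only libraries above every forage library, while HG_PHY 4 was below every one, so the 4 groups overlapped almost throughout.

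miR-486 on forage was at 1344, 821, 1502, 1127 and 1055 CPM in FD_CON 1 to 5 and at 1490, 1003, 1538 and 990 CPM in FD_PHY 1 to 4. In the grain libraries it was at 2461, 1494, 2537, 1085 and 1040 CPM in HG_CON 1 to 5 and at 2271, 1400, 1049 and 858 CPM in HG_PHY 1 to 4. The same 3 grain libraries were above all forage libraries, and none was below all of them.

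miR-144 on forage was at 348, 115, 201, 197 and 150 CPM in FD_CON 1 to 5 and at 270, 141, 232 and 130 CPM in FD_PHY 1 to 4. In the grain libraries it was at 350, 220, 337, 147 and 158 CPM in HG_CON 1 to 5 and at 325, 195, 135 and 124 CPM in HG_PHY 1 to 4. HG_CON 1 was the sole grain library above every forage library, since FD_CON 1 held almost as much.

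**Figure D1:**
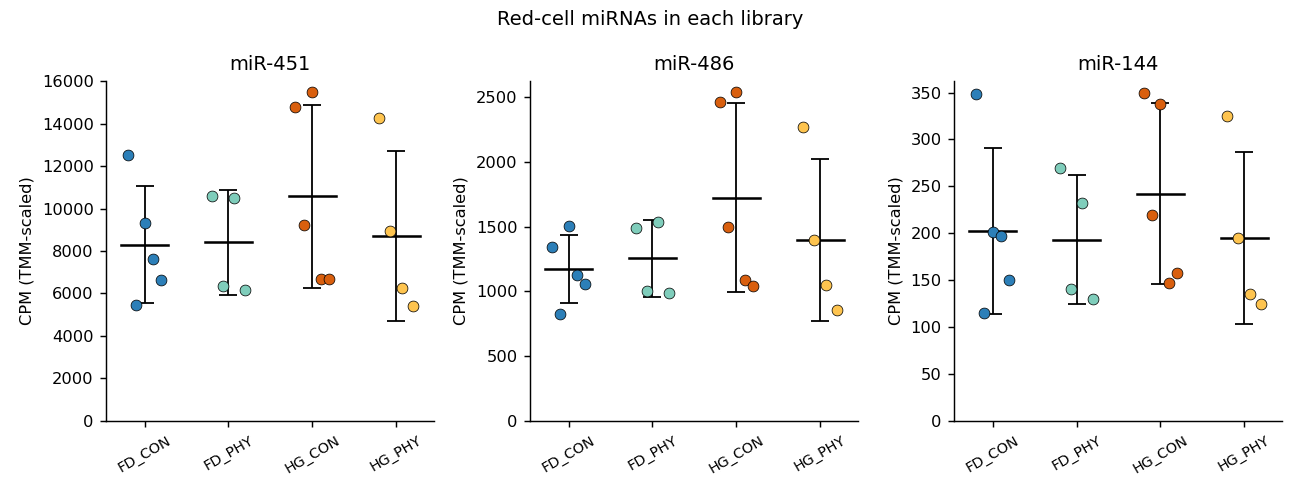
Level of miR-451, miR-486 and miR-144 in each library (TMM-scaled CPM, linear axis from 0) for the 4 groups; points are libraries, bars the group mean with its SD. In each panel HG_CON 1, HG_CON 3 and HG_PHY 1 are far above the other grain libraries, and the groups overlap.

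The diet comparison asked whether the 3 miRNAs changed as the cows went from forage to grain. None of the 3 passed edgeR's quasi-likelihood test in any of the 6 comparisons (468 miRNAs tested, adjusted p under 0.05). Averaged over both arms, the log2 change from forage to grain was 0.20 ± 0.22 (SE) for miR-451 (edgeR adjusted p = 0.791), 0.36 ± 0.21 for miR-486 (edgeR adjusted p = 0.528) and 0.14 ± 0.24 for miR-144 (edgeR adjusted p = 0.907). The test called 0.214% of the 468 miRNAs in that comparison, a single one (miR-320a, no member), and 10.7% had an unadjusted p under 0.05. No member was among the 10.7%, and the median log2 change over the 468 miRNAs was -0.01. The 95% intervals of the changes ran from -0.23 to 0.63 for miR-451, from -0.05 to 0.76 for miR-486 and from -0.34 to 0.61 for miR-144.

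Within the control cows the log2 changes on grain were 0.35 ± 0.29, 0.56 ± 0.27 and 0.26 ± 0.32 for miR-451, miR-486 and miR-144, and within the PHY cows 0.05 ± 0.33, 0.15 ± 0.31 and 0.01 ± 0.36. Neither arm had a call (0% of 468 in edgeR, with 10.7% in CON and 7.05% in PHY at an unadjusted p under 0.05). The difference between the arms, tested as an interaction, was -0.30 ± 0.44, -0.41 ± 0.41 and -0.25 ± 0.49, again with 0% called (2.14% unadjusted). PHY against CON gave 0.02 ± 0.31, 0.10 ± 0.29 and -0.07 ± 0.34 on forage and -0.28 ± 0.31, -0.31 ± 0.29 and -0.32 ± 0.35 on grain, with 0% called in both (4.7% and 6.84% unadjusted). DESeq2 on the same counts called 12 miRNAs for the averaged diet comparison, 1 for PHY against CON on forage, 2 on grain and 0 in the other comparisons, with no member among them.

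The spread between libraries of the same group was large for all 3. The SD of log2 CPM about the group means was 0.53 for miR-451, 0.50 for miR-486 and 0.59 for miR-144, against a median of 0.28 over the 275 tested miRNAs with a mean of at least 10 CPM. They ranked 28th, 33rd and 21st from the highest of those 275.

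The 3 rose and fell together from library to library. Over the 18 libraries, the log2 CPM of miR-451 and miR-144, the neighbours of the cluster, had a Pearson r of 0.983 and a Spearman rho of 0.981. miR-451 and miR-486, which lie on different chromosomes, had r = 0.957 and rho = 0.938, and miR-486 and miR-144 r = 0.902 and rho = 0.901. In permutation tests of the 9 relations computed (3 pairs, over 18 libraries and within each diet), every r had an adjusted p of 0.0065 or less. For the 3 pairs over 18 libraries the adjusted permutation p was 1.65e-05. Before adjustment it was the smallest that 100000 permutations can give (1e-05). Every rho had an adjusted p of 0.00607 or less in the same permutation tests. Without the libraries farthest from the median, HG_CON 3 and HG_CON 1, the 3 values of r were 0.979, 0.938 and 0.870 in the same order of pairs.

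The relation held within each diet. In the 9 grain libraries r was 0.996 for miR-451 with miR-144, 0.998 for miR-451 with miR-486 and 0.992 for miR-486 with miR-144. In the 9 forage libraries the same pairs had r = 0.978, 0.911 and 0.835, and miR-451 and miR-144 ranked the 9 libraries in the same order (rho = 1). The values of r for miR-486 depended in part on FD_CON 1. Without that library, r over the remaining 17 of both diets was 0.991 for miR-451 with miR-486 and 0.967 for miR-486 with miR-144. Within forage, leaving out each library in turn gave r of 0.884 to 0.982 and 0.774 to 0.929 for these pairs. Because both values of a pair share the library's scaling, the raw reads were also compared with no scaling (chosen after the data were seen), and r over 18 libraries was then 0.974, 0.927 and 0.846.

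**Figure D2:**
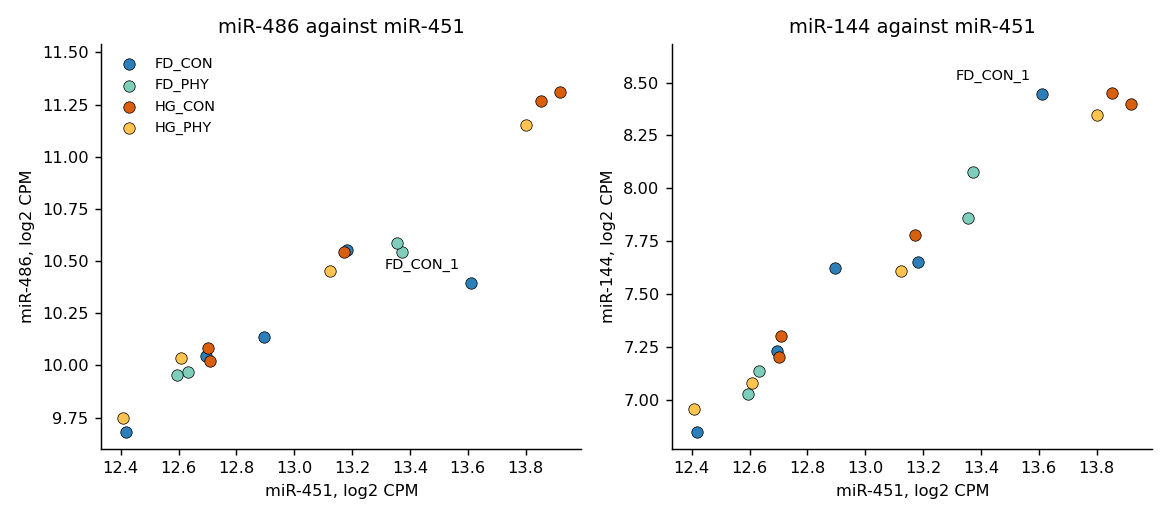
Log2 CPM of miR-486 (left) and of miR-144 (right) against miR-451; each point is 1 of the 18 libraries, coloured by group. The points fall along a line in both panels, and FD_CON 1 lies below it for miR-486.

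The members' changes were close to proportional. In an edgeR fit of each miRNA on the level of a member about its group means (added after the data were seen), miR-144 had a slope of 1.09 ± 0.08 (SE) and miR-486 of 0.91 ± 0.08 on miR-451, in log2 units of the miRNA per log2 unit of miR-451. A slope of 1 is a fixed proportion, and the 95% intervals of 0.93 to 1.24 and 0.76 to 1.07 contain it. Of the 6 slopes among the members, that of miR-486 on miR-144 was the lowest at 0.80 ± 0.10, and its interval of 0.61 to 0.99 ends just below 1. The intervals of the other slopes, miR-451 and miR-144 on miR-486 (0.89 to 1.25 and 0.85 to 1.39) and miR-451 on miR-144 (0.77 to 1.03), contain 1. All are normal approximations, somewhat narrow for 18 libraries. The margin below 1 therefore cannot settle whether the slope of miR-486 on miR-144 differs from 1. For all 467 other miRNAs tested the median slope on miR-451 was -0.06, with 4.28% called higher with it and 1.5% lower (edgeR, adjusted p under 0.05).

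The ratios of raw reads to those of miR-451, which need no scaling, show the same near-constancy. For every 100 reads of miR-451 there were 2.30 ± 0.18 reads of miR-144 (SD, n = 18; 2.11 in FD_CON 2 to 2.79 in FD_CON 1) and 15.5 ± 1.38 of miR-486 (10.7 in FD_CON 1 to 16.8 in HG_PHY 3). The coefficient of variation was 7.89% and 8.90%, against 36.6% for the CPM of miR-451 itself. FD_CON 1 stood apart in both ratios. Without it the number of miR-486 reads per 100 of miR-451 was 15.7 ± 0.736, within 14.1 to 16.8.

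One of the 3 ratios between members passed the test between the diets, which treats the 18 libraries of 9 cows as independent. miR-486 stood at 14.8 ± 1.68 reads per 100 of miR-451 on forage and at 16.1 ± 0.438 on grain (SD, n = 9 each), a difference in mean log2 ratio of 0.13 (exact permutation test, two-sided, p = 0.00757, adjusted over the 3 ratios 0.0227). All 9 grain libraries were above the forage mean and 5 were above every forage library. Without FD_CON 1, the library with the low ratio, the difference was 0.078 (exact permutation test, adjusted p = 0.0416). The call ended without HG_CON 1, HG_CON 3, HG_CON 4 or HG_PHY 3 (adjusted p 0.0520 to 0.0632 in exact permutation tests). The ratio of miR-144 to miR-451 differed by -0.04 (exact permutation p = 0.513) and that of miR-144 to miR-486 by -0.17 (exact permutation p = 0.122, adjusted 0.184).

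**Figure D3:**
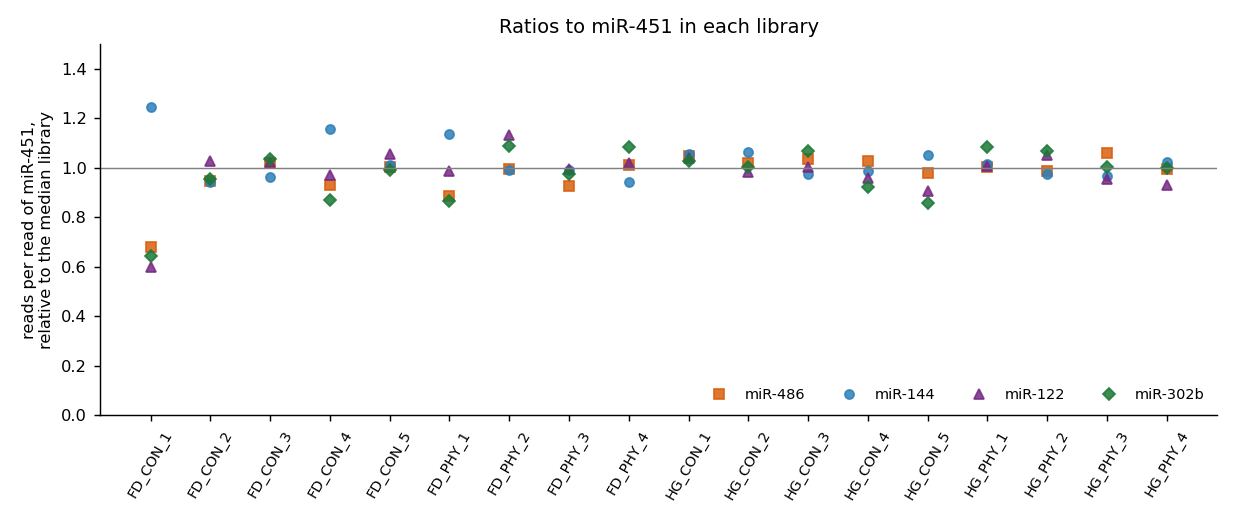
Raw reads of miR-486, miR-144, miR-122 and miR-302b per read of miR-451 in each library, divided by the median library (linear axis from 0). Nearly all points lie close to 1; in FD_CON 1 miR-486, miR-122 and miR-302b are low and miR-144 is high.

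A ratio used to judge red-cell content in blood work sets miR-451 against miR-23a, of which red cells hold little. It ranged from 0.321 reads of miR-451 per read of miR-23a in FD_CON 5 to 1.87 in HG_CON 3. Its mean was 0.596 ± 0.248 on forage and 0.909 ± 0.541 on grain (SD, n = 9 each), and the log2 difference of 0.49 did not pass an exact permutation test (two-sided, p = 0.182). This ratio fell with depth. On a log2 scale, raw reads had a slope on the reads counted of 1.30 for miR-23a and -0.11 for miR-451.

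Most other miRNAs abundant in red cells had low slopes on miR-451. All 15 on a list of such miRNAs (among them miR-16, miR-15, miR-92a, miR-25 and the miR-182 cluster, all of which other cells make as well) were tested. Their median r with miR-451 over the 18 libraries was -0.03, against -0.09 over the 274 other tested miRNAs with at least 10 CPM. Within the list r ran from -0.30 (miR-20b) to 0.747 (miR-15b). On miR-451, 1 of the 15 had a slope that passed the edgeR test, miR-15b at 0.28 ± 0.07 (edgeR adjusted p = 0.0162), beside 4.28% of all miRNAs tested. miR-16 (read from its human entry, miR-16-5p) had r = 0.616 over 18 libraries (rho = 0.604). A permutation test of r, adjusted over 27 marker relations, gave an adjusted p of 0.0174. Its r was 0.745 on forage and 0.568 on grain, and its slope of 0.15 ± 0.07 is far from proportion. Without HG_CON 3 and HG_CON 1 its r over 16 libraries was 0.495, and on grain -0.03, so the grain value rests on those libraries. Scaled to all reads, its r over 18 libraries was 0.337 and did not pass (permutation adjusted p = 0.287). In the diet comparison 11 of the 15 had a log2 change above 0 (median 0.06), beside 49.1% of all miRNAs tested, and 0 passed edgeR. The 3 with the lowest p were miR-93 (0.28 ± 0.08, human entry), miR-25 (0.30 ± 0.09) and miR-183 (0.27 ± 0.11), with adjusted p of 0.165, 0.165 and 0.317 in edgeR.

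Markers of other blood cells moved with miR-451 unevenly. Each permutation adjusted p below is that of r, unless rho is named. Of 8 leukocyte miRNAs, 1 had a slope on miR-451 that passed edgeR: miR-150, typical of mature lymphocytes, at 0.63 ± 0.10 (edgeR adjusted p = 0.000324). miR-150 had r = 0.870 with miR-451 over 18 libraries (rho = 0.789, permutation adjusted p = 0.000135), 0.669 on forage (exact permutation adjusted p = 0.0990) and 0.968 on grain (exact permutation adjusted p = 0.00162). miR-223, the defining miRNA of neutrophils and other myeloid cells, had r = 0.440 over 18 libraries (rho = 0.496, permutation adjusted p = 0.107), 0.910 on forage (rho = 0.900, exact permutation adjusted p = 0.00543) but -0.02 on grain (exact permutation adjusted p = 0.966). miR-142-3p, found in all blood cells with a nucleus, had r = 0.468 over 18 libraries (permutation adjusted p = 0.0972). Its rho of 0.538 over 18 libraries passed (permutation adjusted p of rho = 0.0485). On forage its r was 0.173 (exact permutation adjusted p = 0.692) and on grain 0.850 (rho = 0.967, exact permutation adjusted p of r = 0.00623). About the group means both passed over 18 libraries, with r = 0.546 for miR-223 (permutation adjusted p = 0.0356) and 0.570 for miR-142-3p (permutation adjusted p = 0.0298). miR-126-3p, of endothelium and platelets, had r = 0.219 over 18 libraries (rho = 0.127, permutation adjusted p of r = 0.466). Its r was -0.288 on forage (exact permutation adjusted p = 0.499) and 0.625 on grain (exact permutation adjusted p = 0.102). On grain its rho of 0.783 passed (exact permutation adjusted p of rho = 0.0388). Whether the 2 diets differ in these relations was not tested.

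Among tissue markers, the epithelial miR-205 had r = -0.616 with miR-451 over 18 libraries (permutation adjusted p of r = 0.0174, rho = -0.567), with r of -0.364 on forage and -0.784 on grain. Without HG_CON 3 and HG_CON 1 its r was -0.464. Scaled to all reads in place of the reads counted, the relation did not pass over 18 libraries (r = -0.452, permutation adjusted p = 0.148) or on grain (r = -0.675, exact permutation adjusted p = 0.137). Of the 6 epithelial miRNAs tested none passed the slope test. Their median slope was -0.23, from -0.32 (miR-200a) to 0.11 (miR-141). The smooth muscle miRNAs miR-143 and miR-145 and the 3 striated muscle miRNAs tested did not pass it either. miR-1, the most abundant of those 3, had a slope of 0.15 ± 0.16 on miR-451 (edgeR adjusted p = 0.740). The muscle-specific miR-206 had 37 reads in all libraries together and did not pass the filter.

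**Figure D4:**
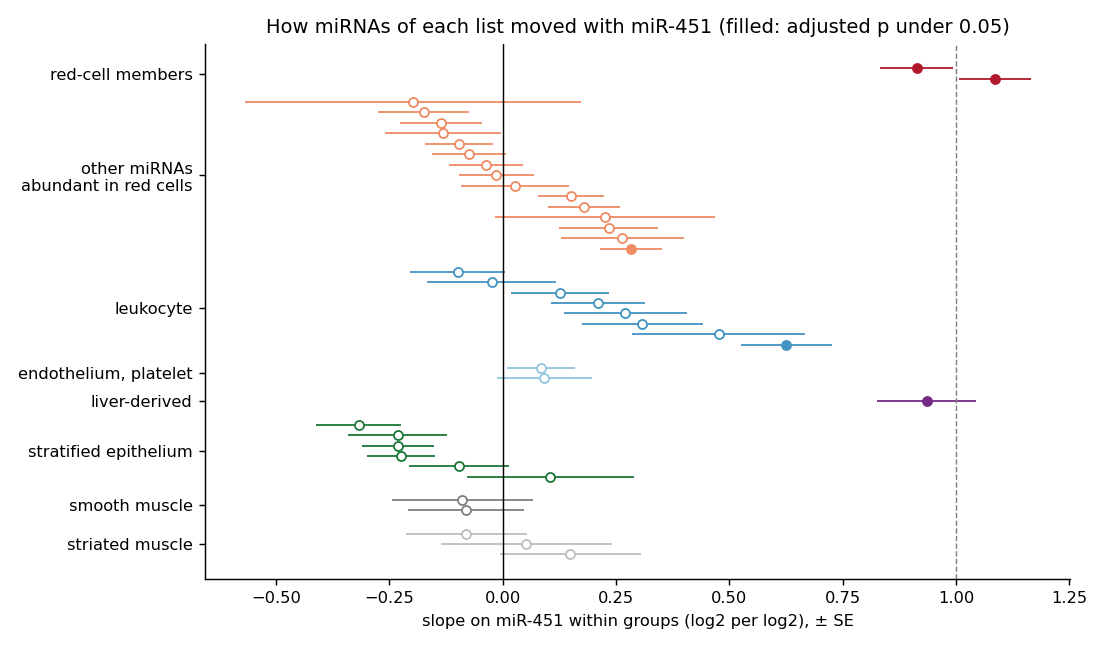
Slope of each listed miRNA on miR-451 about the group means (log2 per log2, bars are SE), by list; filled points passed edgeR at an adjusted p under 0.05. miR-486, miR-144 and the liver-derived miR-122 lie near 1 (dashed line). The 15 other miRNAs abundant in red cells lie from -0.20 (miR-20b) to 0.28 (miR-15b).

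Apart from each other, the miRNAs most like the members included several best known from other organs or from embryonic cells. The nearest non-member of both miR-451 and miR-144 was miR-2285bc, which is not among those. By Pearson r of log2 CPM over 18 libraries, given as a description, the 5 nearest to miR-451 were miR-144 (0.983), miR-2285bc (0.966), miR-486 (0.957), miR-302b (0.936) and miR-375 (0.933). Those nearest to miR-486 were miR-302b (0.985), miR-122 (0.977), miR-202 (0.974), miR-451 (0.957) and miR-375 (0.949). For miR-144 they were miR-451 (0.983), miR-2285bc (0.936), miR-486 (0.902), miR-375 (0.883) and miR-2419-5p (0.879). Of the 274 other miRNAs with at least 10 CPM, 9 had an r above 0.8 with miR-451. miR-302b belongs to a cluster known from embryonic stem cells, miR-122 is made almost only by hepatocytes, miR-375 is best known from pancreatic islets and other secretory cells, and miR-202 from the gonads.

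The non-members named above averaged 21.0 CPM (miR-202) to 117 CPM (miR-2285bc), below the 210 CPM of miR-144. Outside FD_CON 1, miR-122, miR-302b and miR-375 kept a nearly fixed ratio to miR-451. miR-2285bc varied more, from 10.7 to 16.7 reads per 1000 of miR-451, with a slope of 0.70 ± 0.08 on miR-451. miR-122, the liver-derived marker among the lists, had r = 0.929 with miR-451 over 18 libraries (permutation adjusted p of r = 0.000135, rho = 0.934). Its r was 0.775 on forage (exact permutation adjusted p = 0.0389) and 0.997 on grain (exact permutation adjusted p = 0.000174). Scaled to all reads, the forage relation did not pass (r = 0.678, exact permutation adjusted p = 0.137). Its slope on miR-451 was 0.94 ± 0.11 (edgeR adjusted p = 8.6e-06). It stood at a median of 11.0 reads per 1000 of miR-451, with 6.61 in FD_CON 1 and 9.97 to 12.5 in the other 17 libraries. miR-302b stood at 3.25 per 1000, with 2.09 in FD_CON 1 and 2.79 to 3.53 in the others, from 170 to 510 raw reads a library. miR-375 stood at 3.87 per 1000, with 2.71 in FD_CON 1 and 3.51 to 4.71 elsewhere. FD_CON 1 was thus low in miR-122, miR-302b, miR-375 and miR-486 alike, relative to miR-451, and high in miR-144.

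In the edgeR fits on each member's level, 18, 19 and 13 miRNAs that are no members were called higher with miR-451, miR-486 and miR-144 in turn; with the members themselves counted, these are 4.28%, 4.5% and 3.21% of the 467 tested. Called lower with them were 1.5%, 1.5% and 0.428%. The 13 called with all 3 make up 13 of the 18, 13 of the 19 and all 13. They are, named after their values were seen, miR-122, miR-135b, miR-150, miR-15b, miR-196b, miR-202, miR-217, miR-2285bc, miR-2419-5p, miR-302a, miR-302b, miR-302d and miR-375. The members move together, so the 3 lists are not independent of each other. The other miRNAs of the miR-302 cluster had r = 0.881 (miR-302a), 0.809 (miR-302c) and 0.856 (miR-302d) with miR-451, at means of 4.35 to 6.94 CPM. miR-217 and miR-216b, neighbours known from the exocrine pancreas, had r = 0.882 and 0.832 at 2.003 and 2.73 CPM. Without HG_PHY 1 the number called in either direction on miR-451 was 14 in place of 27, without HG_CON 3 it was 17, and on miR-144 it was 10 in place of 17 without HG_PHY 1.

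The members' raw reads did not increase with depth. Over libraries whose counted reads differed 2.65-fold, miR-451 had 59338 to 147443 raw reads, with a median of 72179. In the libraries with the fewest counted reads, HG_CON 1 (5.74 M) and HG_PHY 1 (6.001 M), it had 93528 and 93558 reads. In those with the most, FD_CON 2 (15.2 M) and HG_PHY 4 (13.3 M), it had 67788 and 69772. The same order held between these 4 libraries for miR-486 (15545 and 14889 against 10177 and 11025) and for miR-144 (2211 and 2130 against 1428 and 1597). The next in depth did not follow it: FD_CON 1 (12.1 M) held 146641, 15757 and 4086 reads of miR-451, miR-486 and miR-144, and FD_PHY 1 (6.53 M) held 72473, 10183 and 1845.

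On a log2 scale, raw reads of miR-451, miR-486 and miR-144 had slopes of -0.11, -0.19 and -0.13 on the reads counted, against a median of 0.82 over the 275 miRNAs with at least 10 CPM, where 1 means in proportion to depth. They ranked 7th, 5th and 6th from the lowest. miR-122 (-0.24), miR-302b (-0.23), miR-375 (-0.06) and miR-2285bc (0.12) were like them, whereas the epithelial miR-205 had 0.999 and miR-23a 1.30. The raw reads of the 3 had r of -0.11, -0.21 and -0.11 with the reads counted over 18 libraries (rho -0.24, -0.10 and -0.19; permutation tests, adjusted p 0.740 each for r), and none of the relations within a diet passed either (9 relations).

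**Figure D5:**
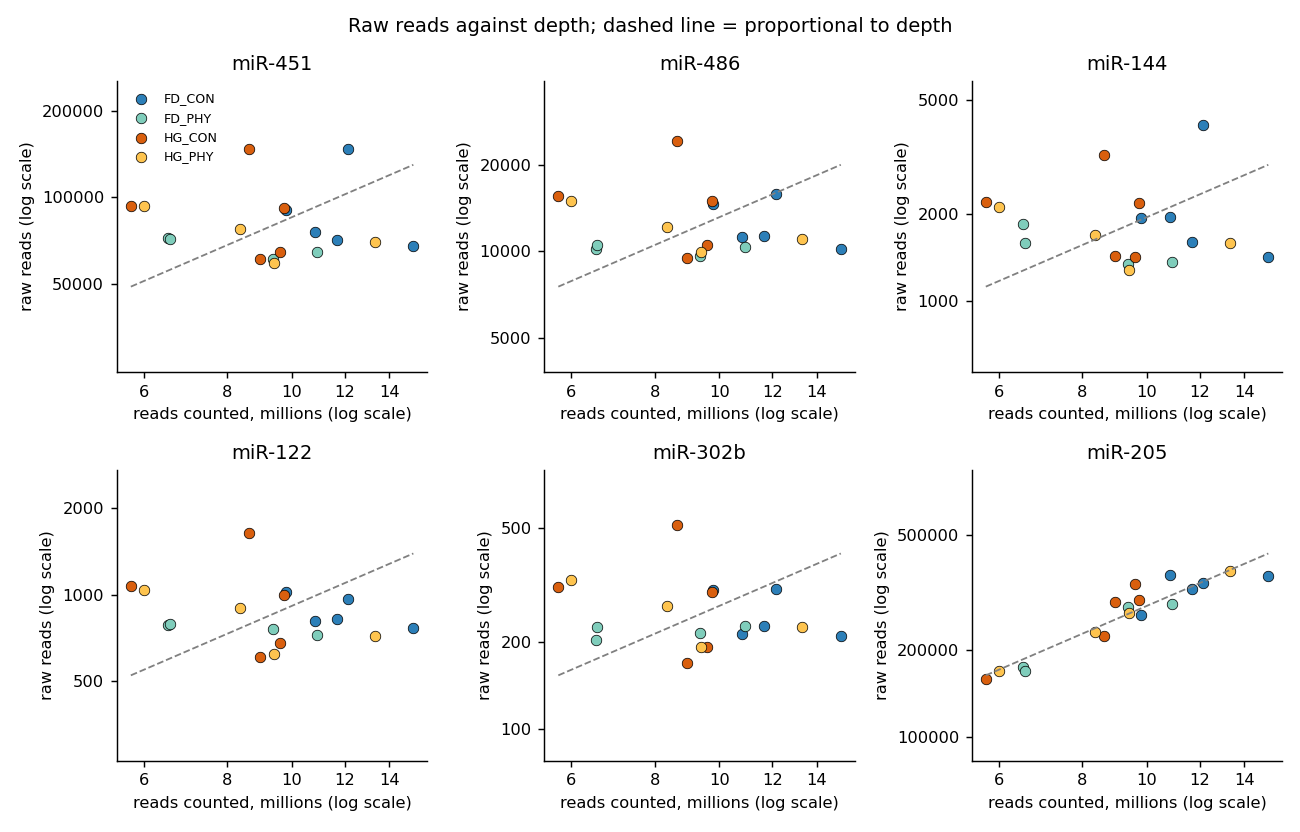
Raw reads of the 3 members, of miR-122, miR-302b and miR-205 against the reads counted in each of the 18 libraries (both axes log); the dashed line is proportion to depth. miR-205 follows the line, while the other 5 are no higher in deep libraries than in shallow ones.

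Scaled to CPM, the members fell with depth. In an edgeR fit with the 4 group means (added after the data were seen), the slope of the level on the log2 of the reads counted was -1.16 ± 0.24 (SE) for miR-451 (edgeR adjusted p = 0.0146), -1.15 ± 0.21 for miR-486 (0.00778) and -1.24 ± 0.28 for miR-144 (0.0266). A slope of -1 is what a constant number of reads gives. The fit called 2.56% of 468 miRNAs lower with depth, 12 in all, and 1.28% higher. Besides the members, the 12 were miR-122, miR-202, miR-302b, miR-302c, miR-375, miR-2419-5p, miR-150, miR-2285bc and miR-196b. The calls rest on few libraries: without HG_PHY 1 there were 0 calls in edgeR, with slopes of -1.06, -1.05 and -1.14 for the members (adjusted p = 0.164, 0.131 and 0.164). miR-451 also lost its call without HG_PHY 4 (edgeR adjusted p = 0.0714), and miR-144 without HG_PHY 4 (0.0751), FD_PHY 1 (0.0599) or HG_CON 1 (0.0507). Depth moved with the groups as well, from 9.79 to 15.2 M in FD_CON, 6.53 to 10.9 in FD_PHY, 5.74 to 9.75 in HG_CON and 6.001 to 13.3 in HG_PHY. With the reads counted as a covariate, the log2 changes from forage to grain were -0.047 for miR-451, 0.10 for miR-486 and -0.12 for miR-144, and PHY against CON on forage was -0.64, -0.52 and -0.78. None of these passed (edgeR adjusted p from 0.773 to 0.977).

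How much of the members' level was blood was not tested.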

How the data were processed

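Small RNA was extracted from rumen papillae with the NucleoSpin miRNA kit and made into libraries with the NETflex Small RNA-Seq kit, per the labels' protocols. Of software, bcl2fastq 2.20 and DESeq2 appear in the submitters' processing notes, without a role. The sources used here do not give the aligner, the counter or the build. Each deposited library file gives, per the file headers, for each name its raw count, an expected count, adjusted by the authors for reads that fit several names or loci, and RPM of all reads, which served to find the read totals. The adjusted count came to 0.503 of the raw count for miR-451, 0.5 for miR-486 and 1 for miR-144. The authors' deposited table of the series holds a normalized signal for 673 names, and 100% of its values became whole reads within 0.01 reads, each equal to the rounded adjusted count.

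The 966 names (759 bovine, 207 human) were merged to 824 miRNAs where positions overlapped by at least 15 nt, or where a bovine and a human name had totals within 5%; the name with the highest total represented each. Raw counts were tested with edgeR 4.0.16 (R 4.3.3): TMM, filterByExpr, a mean for each of 4 groups, quasi-likelihood test, Benjamini-Hochberg adjustment, threshold 0.05, two-sided. P-values treat 18 libraries of 9 cows as independent. Levels and log2 changes are on the raw counts scaled by TMM. Correlations used log2 CPM (prior count 2), with 100000 permutations over 18 libraries and exact permutation of the pairings within a diet; ratios used all 48620 arrangements. Alternatives used DESeq2 1.42.0, limma 3.58.1 (log2 of the authors' values plus 1), other scalings and filters, adjusted counts, a replicate block and each library left out. The edgeR and permutation code was tested on simulated data.

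The members, the lists and the comparisons were chosen with earlier results of these data known. The miRNAs named are the members, the markers and lists, the 5 most like each member by r among tested miRNAs of at least 10 CPM, and the 3 of the red-cell list with the lowest p in the averaged diet comparison. Any other, such as miR-320a, miR-302c or miR-216b, was named after its values were seen. The slopes on a member and on the reads counted, the depth covariate and the unscaled reads were added after the data were seen.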

Additional observations from a re-analysis of the deposited data

Results flagged for a closer look

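One value stood far from the rest of its group. In FD_CON, library 1 held 10.7 reads of miR-486 per 100 reads of miR-451, and its gap to the nearest of the other 4 libraries was 0.747 of the group's range. This was the single such value among 28 groups of libraries checked, and chance alone marks about 1 group in 20. The same library held the lowest numbers of miR-122 (6.61), miR-302b (2.09) and miR-375 (2.71) per 1000 reads of miR-451.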

How the results depend on the processing

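None of the 3 members passed in any of the 6 comparisons under any alternative. The number of all miRNAs called for the averaged diet comparison was 12 in DESeq2, 4 with the replicate block, 3 with no filter, 2 with reads-only scaling, on the authors' table, with unmerged names or with the depth covariate, and 0 with upper-quartile or all-reads scaling, a 10 CPM minimum or without the 5 most abundant miRNAs. For PHY against CON, DESeq2 called 1 miRNA on forage and 2 on grain, and edgeR with no filter 1 on forage.

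With reads counted as a covariate (added after the data were seen), log2 changes turned for diet (miR-451 -0.047, miR-144 -0.12), diet in CON (miR-451, miR-486 and miR-144 -0.25, -0.024 and -0.38), PHY against CON on forage (miR-451 -0.64, miR-486 -0.52) and the interaction (0.40, 0.26 and 0.52); how depth takes part was not tested. Changes near 0 also turned. Diet in PHY for miR-451 was -0.0047 on the authors' table and -0.0012 with the replicate block. For miR-144 it was -0.000205 in DESeq2, -0.00041 with RLE, -0.0021 with upper-quartile scaling, -0.00046 with no filter, -0.021 with adjusted counts, -0.039 on the authors' table, -0.024 with the replicate block and -2.6e-05 without the 5 most abundant. PHY against CON on forage for miR-144 was 0.065 with reads-only scaling. The cause was not tested for any of these.

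The labels do not say whether equal numbers are the same cow. In a check of likeness 2 of 9 libraries matched their own number best, which cannot settle it. With the replicate block the call of the miR-486 to miR-451 ratio (difference 0.13) ended. Its adjusted p was 0.152 by exact sign-flip permutation, against 0.0227 in the main exact permutation test. With RPM of all reads the marker calls below ended, or r near 0 turned (miR-142-3p, miR-223): r with miR-451 was 0.337 (miR-16-5p) and -0.452 (miR-205) over 18 libraries, -0.113 (miR-142-3p), 0.678 (miR-122) and 0.371 (miR-16-5p) on forage, and 0.0067 (miR-223), -0.675 (miR-205) and -0.700 (reads counted) on grain. About the group means, r was 0.546 (miR-223) and 0.570 (miR-142-3p) over 18 libraries, both now passing, and 0.182 for miR-223 on grain. The depth slope called 10 miRNAs with RLE and 31 in DESeq2, and the slope on miR-144 called 26 in DESeq2.

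Leaving out each library in turn moved the averaged diet change from 0.03 to 0.30 for miR-451, 0.18 to 0.43 for miR-486 and -0.048 to 0.28 for miR-144, with 0 to 3 miRNAs called. Diet in PHY ran from -0.29 to 0.23, -0.19 to 0.33 and -0.35 to 0.23 in the same order. PHY against CON on forage ran from -0.12 to 0.21, -0.021 to 0.22 and -0.27 to 0.22, with 0 to 1 calls, and 0 to 2 on grain. The miR-486 to miR-451 ratio difference ran from 0.078 to 0.15. The slope on miR-451 called 14 to 28 miRNAs and that on miR-144 10 to 23. The slope on the reads counted called 0 to 21 and ran from -1.25 to -1.06 for miR-451, -1.23 to -1.05 for miR-486 and -1.34 to -1.14 for miR-144. Every r among the members stayed at 0.774 or above and passed.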
